A study of Homo sapiens with 14 samples.

Results

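Knockout 3 was compared with knockout 1, both SK-N-BE2 lines labelled as TET2 knockouts, to ask how far lines that carry the same genotype label differ from each other. SK-N-BE2 is an established line grown from a neuroblastoma whose MYCN gene is amplified. The comparison used 4 of the 14 RNA libraries of the series: TET2KO #3 (replicates 1 and 2) and TET2KO #1 (replicates 1 and 2). All 4 are from the second batch in the labels, grown in RPMI 1640 medium with fetal bovine serum and given no treatment. The other libraries of that batch, WT (2 replicates) and TET2KO #2 (2 replicates), entered the fit to help estimate the spread and their levels are given as a reference. How the knockouts were made, whether each number is a clone or a pool, and whether replicates are separate cultures are not given in the sources used here, so a difference between the lines cannot be told apart from a difference between clones or cultures. The p-values measure only the spread between these libraries, which may be technical.

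TET2 is a dioxygenase that oxidises 5-methylcytosine in DNA to 5-hydroxymethylcytosine, a step toward removal of the methyl mark. Neuroblastoma arises from the sympathetic lineage of the neural crest. Its cells commonly keep a noradrenergic programme, in which transcription factors such as PHOX2A, HAND2 and GATA3 are expressed beside the enzymes that make dopamine and noradrenaline.

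The libraries held 52781251 and 56836362 counts for knockout 1 and 59263320 and 52095024 for knockout 3, over 19923 protein-coding genes. Between 77.3 and 80.5% of the counts from 1 to 10 in the 8 libraries were even, since most fragments were counted as 2 reads, so a count overstates the number of molecules. Of 8 sympathetic neuroblast markers, 7 could be tested, and the summed level of the 8 was 2885 and 2939 CPM (counts scaled by the library total) in knockout 1 and 2768 and 2808 CPM in knockout 3. Immune and epithelial markers stayed low, at a sum of 7.64 to 10.6 CPM over 6 immune genes and 2.86 to 3.54 CPM over 6 epithelial genes, with 2 of the immune genes and 1 of the epithelial genes at no count. In RNA from whole cultures, fewer cells of a type and less RNA per cell cannot be told apart.

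TET2 RNA did not separate the knockouts clearly. In CPM scaled by the trimmed mean of M-values (TMM), TET2 (chromosome 4, 105145875 to 105279816, GRCh38) stood at 80.4 and 76.6 in knockout 1 and at 68.2 and 75.4 in knockout 3. WT libraries held 70.8 and 64.8 CPM, and knockout 2 held 87.4 and 91.1 CPM. The mean of neither knockout was therefore below that of WT, and this measurement does not check the genotype label, since RNA can persist from an edited gene. Knockout 3 minus knockout 1 was -0.13 on the log2 scale (SE 0.05), with an adjusted p of 0.0885 (quasi-likelihood F-test of edgeR, Benjamini-Hochberg adjusted over all genes tested). Without knockout 3 replicate 2 the difference was -0.20 with an adjusted p of 0.0221. TET1, another enzyme of the family, was lower in knockout 3, at 34.0 and 35.4 CPM against 41.1 and 42.2 CPM (log2 difference -0.26, SE 0.06, adjusted p = 0.00173). The TET1 call was lost without knockout 1 replicate 2 (adjusted p = 0.0507) and without knockout 3 replicate 1 (adjusted p = 0.0602). TET3 was at 122 and 126 CPM in knockout 1 and 120 and 119 CPM in knockout 3, with no call (adjusted p = 0.556). Of 12 TET and DNA methylation enzymes, TET1 was the 1 that passed the test, beside 8.3% of all genes tested. Among 11 tested members of Polycomb repressive complex 2, which methylates histone H3, only JARID2 did. It was at 108 and 104 CPM in knockout 1 and 89.9 and 91.6 CPM in knockout 3 (adjusted p = 0.000103). Counts of 1 in lists this short do not set either group apart from the share over all genes. MYCN itself was not called, at 4548 and 4594 CPM in knockout 1 and 4699.9 and 4715 CPM in knockout 3 (log2 difference 0.04, SE 0.03, adjusted p = 0.355).

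Across the transcriptome the differences were many and mostly small. Of 14061 genes tested, 1167 (8.3%) had an adjusted p under 0.05, 620 of them higher in knockout 3 (4.41%) and 547 lower (3.89%). The median size of a called difference was 0.21 on the log2 scale, which is 1.16-fold. Among the called genes 412 differed by at least 1.2-fold, 110 by at least 1.5-fold (45 higher and 65 lower) and 23 by at least 2-fold (6 higher and 17 lower, 0.164% of genes tested). Of these 23, 15 had a mean under 1 CPM in the 4 libraries, and DESeq2 called only 5 genes past 2-fold. When the test asked for more than a 1.2-fold change, 57 genes passed (0.405%), 26 higher and 31 lower. The median over all genes tested was -0.00088. DESeq2 called 945 of 11323 genes with an adjusted p, 490 higher (4.33%) and 455 lower (4.02%). Groups did not overlap for 1163 of the called genes, against 47.9% of all genes tested. A call selects for such separation, so this count is a description and no added support. Without knockout 1 replicate 1 the count of called genes was 621, without knockout 1 replicate 2 it was 564, and without knockout 3 replicate 1 it was 687.

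**Figure D1:**
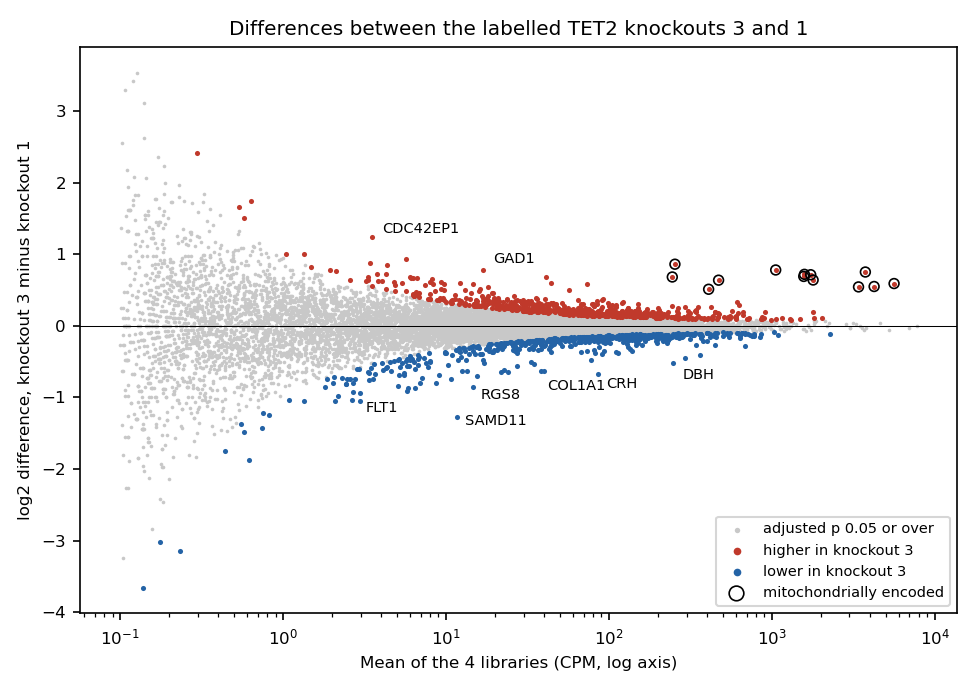
The log2 difference of knockout 3 minus knockout 1 is plotted against the mean CPM of the 4 libraries (log axis) for tested genes with a mean of at least 0.1 CPM, with called genes in red (higher) and blue (lower) and the 13 mitochondrially encoded genes ringed. The ringed genes lie at 0.51 to 0.86, above other genes of similar level.

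The 2 other groups of the batch show on which side a called gene moved. Among the 1167 called genes, knockout 3 was the highest or lowest of the 4 group means, with knockout 1 in between, for 574 (49.2%), and knockout 1 was so for 240 (20.6%). Over all genes tested these shares were 41.2% and 31.4%. The WT mean lay between knockouts 1 and 3 for 631 called genes (54.1%), against 27.2% of all genes tested. The called genes were selected for a gap between the knockouts, so these shares are a description.

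The largest median of any gene list was that of the mitochondrial genome. It encodes 13 proteins, all subunits of the respiratory chain or of ATP synthase, and most of its mRNAs carry short poly(A) tails. All 13 were higher in knockout 3, with log2 differences of 0.51 (MT-ND3) to 0.86 (MT-ND6) and a median of 0.68, beside -0.00088 over all genes tested. MT-ND4, a complex I subunit, stood at 2826 and 2769 CPM in knockout 1 and at 4662 and 4765 CPM in knockout 3 (log2 difference 0.75, SE 0.03, adjusted p = 1.65e-72). MT-CO1, the catalytic subunit of complex IV, stood at 4465 and 4526 CPM in knockout 1 and 6788 and 6761 CPM in knockout 3. MT-CYB of complex III was at 1207 and 1197 against 1915 and 1968 CPM, and MT-ATP6 of ATP synthase at 1234 and 1163 against 1902 and 2048 CPM. For each of these genes the replicates lay close together and far from the other line. Together the 13 genes took 2.05 and 2.03% of the counts in knockout 1 and 3.11 and 3.17% in knockout 3. WT was in between with 2.596 and 2.65%, and knockout 2 was lowest with 1.71% in both libraries. Knockout 3 thus had the highest mean of the 4 groups for all 13 genes, and WT lay between knockouts 1 and 3 for all 13. All 13 were also called without each of the 4 libraries in turn.

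**Figure D2:**
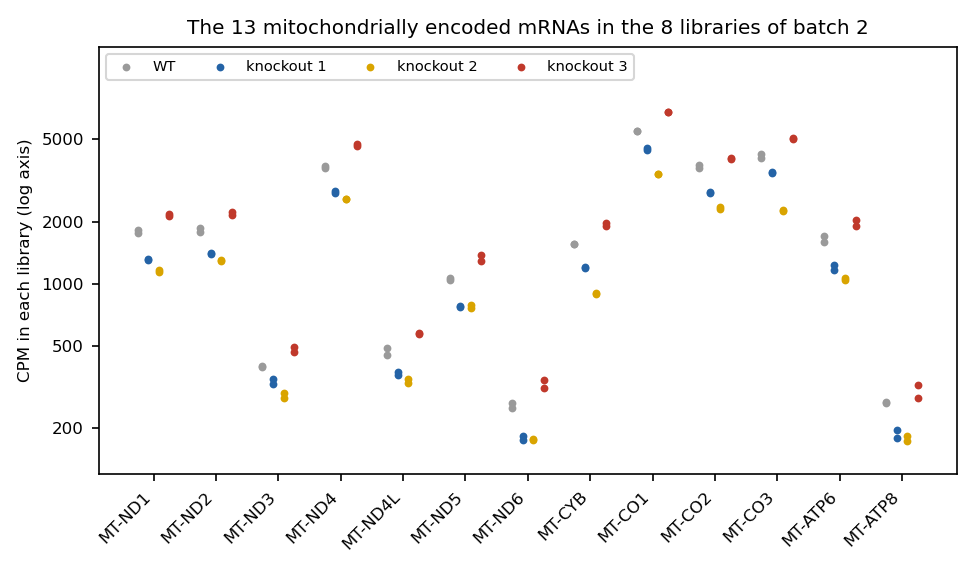
Each point is 1 library, with CPM on a log axis, for the 13 mitochondrially encoded mRNAs in WT, knockout 1, knockout 2 and knockout 3. Both knockout 3 libraries lie above all others for each gene, as for MT-ND4 at 4662 and 4765 CPM.

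Nuclear genes for the same machinery had a smaller median. Of 75 tested nuclear subunits of oxidative phosphorylation, 9 were higher in knockout 3 and 0 lower, with a median of 0.07. The shares over all genes tested were 4.41% higher and 3.89% lower. UQCRFS1, the Rieske iron-sulfur protein of complex III, was at 89.7 and 91.1 CPM in knockout 1 and 105 and 103 CPM in knockout 3 (log2 difference 0.20, SE 0.05, adjusted p = 0.000579). The count of 9 was 5 without knockout 1 replicate 1, 3 without knockout 1 replicate 2 and 3 without knockout 3 replicate 1.

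Many cytosolic ribosomal protein genes were higher in knockout 3 by small amounts. Of 83 tested, 33 were called higher and 0 lower, beside 4.41% and 3.89% of all genes tested, and their median was 0.08. RPS25 was at 327 and 320 CPM in knockout 1 and 381 and 391.5 CPM in knockout 3 (log2 difference 0.26, SE 0.03, adjusted p = 9.08e-11). RPL31, at 407 and 424 against 479 and 475 CPM, and RPS13, at 283 and 286 against 332 and 328 CPM, were likewise separated between the lines. Of the 5 tested members that lie on chromosome 11, 4 were called, RPS25 and RPS13 among them, with a median of 0.21 over the 5. Of the 78 on other chromosomes, 29 were called with a median of 0.08. Ribosomal protein mRNAs are short, and over the 1405 tested genes with the shortest exons in sum (up to 2167 bases) the median was 0.04, a part in the result that was not tested. None of the ribosomal protein genes passed the test against a 1.2-fold change, and the count of 33 was 20 without knockout 1 replicate 1, 14 without knockout 1 replicate 2 and 19 without knockout 3 replicate 1.

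Some genes of DNA replication and mitosis were also higher. Of 24 tested, 9 were called higher and 0 lower, beside 4.41% and 3.89% of all genes tested, with a median of 0.10. CENPF, a kinetochore protein that accumulates before mitosis, was at 544 and 531 CPM in knockout 1 and 658 and 701 CPM in knockout 3 (log2 difference 0.34, SE 0.03, adjusted p = 1.33e-19). MKI67, the proliferation antigen Ki-67, was at 574 and 559 against 664 and 726 CPM (log2 difference 0.29). CCNB1, the mitotic cyclin B1, was at 252 and 249 against 291 and 274 CPM (log2 difference 0.17). WT had 621 and 617 CPM of CENPF and 669 and 646 CPM of MKI67, between the knockouts, and 222 and 237 CPM of CCNB1, below both. The count of 9 was 6 without knockout 1 replicate 1, 4 without knockout 1 replicate 2 and 4 without knockout 3 replicate 1. Of 17 tested G1 cyclins and inhibitors, 0 were higher and 1 was lower, namely CCND1 (log2 difference -0.09), which was not called without knockout 1 replicate 2 (adjusted p = 0.148) or knockout 3 replicate 1 (adjusted p = 0.39).

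The noradrenergic programme differed member by member. Of 11 tested genes of catecholamine synthesis and transport, 3 were lower and 1 was higher, beside 3.89% and 4.41% of all genes tested. DBH, the dopamine beta-hydroxylase that turns dopamine into noradrenaline, had the smallest p among all genes that were lower. It stood at 285 and 295 CPM in knockout 1, 208 and 197 CPM in knockout 3, 245 and 247 CPM in WT, and 233 and 238 CPM in knockout 2. Knockout 3 was thus the lowest and knockout 1 the highest of the 4 groups, with a log2 difference of -0.52 between them (SE 0.04, adjusted p = 1.6e-30). The 250 bases before its RefSeq start (GRCh38.p14, chr9:133636113-133636362, plus strand) are shown because DBH led the lower genes, with capitals for TGACG, a core of the cyclic AMP response element, and ATTA, a homeodomain core:
DBH: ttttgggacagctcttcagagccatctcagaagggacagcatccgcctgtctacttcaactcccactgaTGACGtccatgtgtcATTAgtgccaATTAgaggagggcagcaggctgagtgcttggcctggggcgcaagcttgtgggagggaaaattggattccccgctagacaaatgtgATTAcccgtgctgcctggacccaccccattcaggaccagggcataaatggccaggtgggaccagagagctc
TGACG begins 181 bases before the start, and ATTA begins 166, 156 and 71 bases before it. With both strands searched, TGACG was in 21.2% and ATTA in 47.4% of 35116 RefSeq promoters of this length, so the matches are common. Matches of TGACG and ATTA can share at most an end letter, and a match is a description and not a binding site.

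GCH1, the first enzyme in the synthesis of tetrahydrobiopterin, the cofactor of tyrosine hydroxylase, went the other way. It was at 35.4 and 34.3 CPM in knockout 1 and at 51.1 and 54.7 CPM in knockout 3 (log2 difference 0.60, SE 0.06, adjusted p = 1.93e-16), while WT had 35.5 and 38.0 CPM. TH, tyrosine hydroxylase itself, was at 516 and 547 against 544 and 502 CPM, and its groups overlapped (adjusted p = 0.766). The remaining lower members were CYB561, a cytochrome of the secretory vesicle, with a log2 difference of -0.13, and DDC, the aromatic amino acid decarboxylase, with -0.12. CYB561 lost its call without knockout 3 replicate 2 (adjusted p = 0.0938), and DDC lost it without knockout 1 replicate 2 (adjusted p = 0.14) and without knockout 3 replicate 2 (adjusted p = 0.15).

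Of 14 tested adrenergic core transcription factors, 4 were lower in knockout 3, 1 was higher, and the median was -0.03. All genes tested gave 3.89% lower and 4.41% higher. HAND1, a basic helix-loop-helix factor, was at 91.3 and 93.8 CPM in knockout 1 and 71.6 and 70.8 CPM in knockout 3 (log2 difference -0.38, SE 0.05, adjusted p = 3.68e-11), and TBX2, a T-box repressor, at 74.3 and 76.8 against 58.7 and 58.2 CPM. For these 2 genes knockout 2 stood above both, at 126 and 126 CPM for HAND1 and 117 and 126 CPM for TBX2. TFAP2B, a factor of sympathetic differentiation, was higher, at 313 and 313 against 352 and 368 CPM (log2 difference 0.20). GATA3 was lower with a log2 difference of -0.17, a call lost without knockout 1 replicate 2 (adjusted p = 0.0792). HAND2, at 626 and 625 against 626 and 654 CPM, and PHOX2A, at 424 and 431 against 422 and 426 CPM, were not called. TBX3, a T-box factor listed with the developmental regulators, was at 375 and 372 CPM in knockout 1 and 304 and 316 CPM in knockout 3 (log2 difference -0.27, adjusted p = 2.22e-11).

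Secreted signals of these cells split as well. CRH, corticotropin-releasing hormone, was at 107 and 104 CPM in knockout 1 and 70.0 and 62.1 CPM in knockout 3 (log2 difference -0.67, SE 0.05, adjusted p = 1.79e-28). WT had 63.3 and 63.2 CPM of CRH, close to knockout 3. Of 14 tested granins and neuropeptides, 2 were higher and 3 lower, beside 4.41% and 3.89% of all genes tested. CPE, the carboxypeptidase that trims prohormones, was at 80.3 and 78.8 against 98.4 and 106 CPM (log2 difference 0.36), and CHGB, secretogranin 1 of dense-core vesicles, at 842 and 842 against 949 and 982 CPM (log2 difference 0.20). The lower members were VIP (log2 difference -0.23), VGF (-0.14) and GAL (-0.10). GAL was named after its values were seen. The VIP and VGF calls were lost without knockout 1 replicate 1 (adjusted p = 0.0541) and without knockout 1 replicate 2 (adjusted p = 0.11) respectively. The count of 3 lower was 1 without knockout 1 replicate 2 and 2 without each of the other libraries.

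Receptors for neurotrophic factors were lower where they were called. Of 12 tested genes in a list of neurotrophin, RET and ALK receptors, 5 were lower and 0 higher, with a median of -0.09. This list also holds the secreted factors PTN and MDK. Among all genes tested 3.89% were lower and 4.41% higher. GFRA2, the neurturin co-receptor that signals through RET, was at 38.6 and 39.99 CPM in knockout 1 and 28.6 and 26.6 CPM in knockout 3 (log2 difference -0.51, SE 0.07, adjusted p = 2.58e-10). LTK, a receptor tyrosine kinase related to ALK, was at 7.99 and 8.05 against 5.997 and 4.93 CPM (log2 difference -0.54), a call lost without knockout 3 replicate 2 (adjusted p = 0.113). RET was at 885 and 895 against 838 and 804 CPM (log2 difference -0.12), and was not called without knockout 1 replicate 2 (adjusted p = 0.068) or knockout 3 replicate 2 (adjusted p = 0.142). ALK, at 18.3 and 18.4 against 18.5 and 18.1 CPM, was not called. The count of 5 was 2 without knockout 1 replicate 2 and 1 without knockout 3 replicate 2.

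Of 24 tested genes of the neuronal cytoskeleton and synapse, 4 were higher and 2 lower, with a median of 0.05. GAP43, a growth cone protein, was at 155 and 160 CPM in knockout 1 and 189 and 181 CPM in knockout 3 (log2 difference 0.23, adjusted p = 1.21e-06). SNAP25, a vesicle fusion protein, was at 112 and 113 against 130 and 126 CPM (log2 difference 0.18). SYT1, the calcium sensor of synaptic vesicles, was lower, at 230 and 228 against 196 and 200 CPM (log2 difference -0.21). Among 32 tested genes in a list of semaphorins, ephrins and their receptors, 4 were lower and 1 higher. For both lists, the shares over all genes tested were 4.41% higher and 3.89% lower. The semaphorin list also holds slit and netrin genes with their receptors, and its higher member was the slit receptor ROBO2. The semaphorin receptors PLXNA2 (99.4 and 107 against 74.4 and 83.3 CPM) and PLXNA4 (143 and 146 against 117 and 118 CPM) had log2 differences of -0.39 and -0.30. The 4 higher neuronal genes were 2 without knockout 1 replicate 1, knockout 1 replicate 2 or knockout 3 replicate 2, and the 4 lower guidance genes were 2 without knockout 3 replicate 1.

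Several outputs of bone morphogenetic protein (BMP) signalling were lower in knockout 3. BMP and transforming growth factor beta (TGF-beta) ligands bind receptor kinases, which activate SMAD proteins. Among the genes these switch on are the ID genes and the inhibitory SMADs. Of 25 tested genes of the TGF-beta and BMP pathway, 5 were lower, 3 were higher and the median was -0.20. Beside them, 3.89% of all genes tested were lower and 4.41% higher. SMAD6, an inhibitory SMAD of the BMP branch, was at 19.3 and 18.8 CPM in knockout 1 and 11.04 and 12.6 CPM in knockout 3 (log2 difference -0.69, SE 0.09, adjusted p = 9.13e-10). WT was near knockout 3 with 12.6 and 11.9 CPM, and knockout 2 was highest with 27.3 and 25.6 CPM. ID3, an inhibitor of basic helix-loop-helix factors, was at 170 and 180 against 152 and 138 CPM (log2 difference -0.27, SE 0.04, adjusted p = 3.38e-08), and ID2 was at 135 and 132 against 114 and 118 CPM (log2 difference -0.20). TGFB1, a ligand, was at 11.3 and 13.3 against 8.99 and 7.72 CPM (log2 difference -0.55), and lost its call without knockout 1 replicate 2 (adjusted p = 0.0593). SMAD7, the other inhibitory SMAD, had a log2 difference of -0.37 and lost its call in DESeq2 (adjusted p = 0.0771), without knockout 1 replicate 2 (adjusted p = 0.491) and without knockout 3 replicate 2 (adjusted p = 0.296). The 3 higher members, INHBA (an activin subunit, log2 difference 0.68), ID4 (0.22) and BMPR2 (a type II receptor, 0.14), were not called in DESeq2, with adjusted p of 0.0808, 0.0721 and 0.112. The list count of 3 higher was 0 without knockout 1 replicate 1 and 0 without knockout 1 replicate 2, and the 5 lower were 3 without knockout 1 replicate 2. SMAD7, INHBA, ID4 and BMPR2 are named because the counts are small, after their values were seen.

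The promoters of SMAD6 and ID3 are shown because these members, both lower, are direct outputs of the pathway. The 250 bases before each RefSeq start (GRCh38.p14; chr15:66701986-66702235 on the plus strand and chr1:23559502-23559751 on the minus strand) have the palindrome GTCTAGAC, the SMAD binding element, or CAGAC, which holds its core, in capitals:
SMAD6: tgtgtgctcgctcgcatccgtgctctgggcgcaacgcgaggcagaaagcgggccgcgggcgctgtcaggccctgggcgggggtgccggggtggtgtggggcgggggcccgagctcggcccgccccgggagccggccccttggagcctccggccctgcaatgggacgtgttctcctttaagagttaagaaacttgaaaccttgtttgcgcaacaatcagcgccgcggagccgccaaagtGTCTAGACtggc
ID3: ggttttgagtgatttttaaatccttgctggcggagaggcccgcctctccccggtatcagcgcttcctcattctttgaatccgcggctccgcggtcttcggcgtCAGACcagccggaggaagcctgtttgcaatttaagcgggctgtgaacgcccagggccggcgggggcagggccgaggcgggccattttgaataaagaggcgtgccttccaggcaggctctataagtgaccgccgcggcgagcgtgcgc
GTCTAGAC begins 12 bases before the SMAD6 start and was in 0.182% of the 35116 promoters on either strand, while CAGAC begins 147 bases before the ID3 start and was in 38% of them. SMAD6 was searched only for GTCTAGAC and ID3 only for CAGAC. These letters are a description of the sequence and not a measured SMAD site.

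Extracellular WNT modulators differed in both directions. Of 25 tested WNT pathway genes, 3 were higher and 3 lower, beside 4.41% higher and 3.89% lower over all genes tested. DKK1, a secreted inhibitor of WNT co-receptors, was at 80.3 and 80.9 CPM in knockout 1 and 103 and 106 CPM in knockout 3 (log2 difference 0.37, SE 0.05, adjusted p = 4.96e-11). DKK3 was at 15.3 and 14.1 against 21.6 and 21.1 CPM (log2 difference 0.54), and its exons overlap USP47 on the opposite strand. FZD7, a WNT receptor named after its values were seen, was at 19.4 and 20.4 against 23.7 and 24.4 CPM (log2 difference 0.27). The FZD7 call was lost with each of the 4 libraries left out in turn (log2 difference 0.24 to 0.31). SFRP1, a secreted WNT antagonist, was lower, at 95.6 and 96.6 against 72.9 and 84.2 CPM (log2 difference -0.29). The transcription factor TCF7L2 was at 31.1 and 31.4 against 24.3 and 25.6 CPM (log2 difference -0.33). LEF1, of the same factor family, was at 2.66 and 2.01 against 1.44 and 1.11 CPM (log2 difference -0.86), and its call was lost without knockout 1 replicate 1 (adjusted p = 0.298) and without knockout 3 replicate 2 (adjusted p = 0.19).

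Matrix genes differed in both directions. Of 25 tested collagens and extracellular matrix genes, 5 were lower and 2 higher, with a median of -0.10. For this and the next lists, 3.89% of all genes tested were lower and 4.41% higher. COL1A1, the alpha-1 chain of type I collagen, was at 44.2 and 49.1 CPM in knockout 1 and 31.3 and 28.8 CPM in knockout 3 (log2 difference -0.63, SE 0.06, adjusted p = 1.47e-16). SPARC, a matricellular protein, was at 140 and 142 against 124 and 113 CPM (log2 difference -0.26). LUM, the proteoglycan lumican, was higher, at 22.9 and 25.1 against 30.96 and 30.6 CPM (log2 difference 0.36). COL3A1 was at 15.1 and 14.6 against 12.4 and 13.3 CPM and FN1, fibronectin, at 57.7 and 57.6 against 54.3 and 54.7 CPM, and neither was called, although WT held 158 and 152 CPM of COL3A1 and 325 and 306 CPM of FN1. Of 8 fibroblast markers, 6 could be tested, with 2 lower and 1 higher, and their sum over the 8 was 348 and 367 CPM in knockout 1 and 356 and 347 CPM in knockout 3. Part of the fibroblast list is also in the matrix list. Of 19 tested mesenchymal identity genes, 3 were lower and 0 higher, led by VIM, vimentin, at 878 and 903 against 806 and 791 CPM (log2 difference -0.16). The 5 lower matrix genes were 3 without knockout 1 replicate 2 and 3 without knockout 3 replicate 1, and the 3 lower mesenchymal genes were 1 without knockout 1 replicate 2 and 1 without knockout 3 replicate 2.

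The receptors of vascular endothelial growth factor moved apart. FLT1 (VEGFR1) was at 7.59 and 7.45 CPM in knockout 1 and 3.90 and 4.07 CPM in knockout 3 (log2 difference -0.92, SE 0.15, adjusted p = 6.21e-07), while WT had 10.9 and 9.02 CPM and knockout 2 had 23.6 and 24.3 CPM. KDR (VEGFR2) was at 0.266 and 0.318 against 1.06 and 0.897 CPM (log2 difference 1.74, SE 0.46, adjusted p = 0.0052). These rest on counts of 14 and 18 in knockout 1 and 62 and 46 in knockout 3. WT had 2.44 and 3.03 CPM of KDR, above both lines, and knockout 2 had 0.215 and 0.289 CPM. Without knockout 1 replicate 1, knockout 1 replicate 2 and knockout 3 replicate 1 the adjusted p of KDR was 0.0779, 0.0548 and 0.0856, and it was chosen after its values were seen. Of 10 endothelial markers these were the 2 called, beside 8.3% of all genes tested. PECAM1, a defining marker, had 0 to 10 counts per library.

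Some hypoxia and stress genes were lower by small amounts. Hypoxia-inducible factors (HIF) are kept low by oxygen-dependent hydroxylation and switch on glycolytic and mitophagy genes when they accumulate. Of 25 tested HIF targets, 7 were lower and 1 higher, with a median of -0.16. Here and for the stress genes below, the shares over all genes tested were 3.89% lower and 4.41% higher. HK2, a hexokinase, was at 185 and 180 CPM in knockout 1 and 159 and 165 CPM in knockout 3 (log2 difference -0.17, SE 0.04, adjusted p = 0.000569). HIF1A was at 803 and 779 against 702 and 730 CPM (log2 difference -0.14, adjusted p = 0.000189). EPAS1, which encodes HIF-2 alpha, was at 5.21 and 6.11 against 4.51 and 4.52 CPM and was not called (adjusted p = 0.197). The count of 7 lower was 5 in DESeq2, 2 without knockout 1 replicate 2 and 2 without knockout 3 replicate 2. The 1 higher member, STC2, was not called in DESeq2 (adjusted p = 0.0585) or without any 1 of the 4 libraries (adjusted p = 0.0762 to 0.127). Of 18 tested genes of the integrated stress and unfolded protein response, 6 were lower and 1 higher. ATF4, its central transcription factor, was at 346 and 352 against 327 and 309 CPM (log2 difference -0.13, SE 0.03, adjusted p = 0.00332), and its target ASNS, asparagine synthetase, at 95.5 and 97.2 against 85.4 and 84.1 CPM (log2 difference -0.19). ATF4 and ASNS lost their calls without knockout 1 replicate 2 (adjusted p = 0.0782 and 0.0697), and ATF4 also without knockout 3 replicate 2 (adjusted p = 0.183). The 6 lower became 0 without knockout 1 replicate 2 and 3 without knockout 3 replicate 2. The 1 higher, TRIB3, was not called in DESeq2 (adjusted p = 0.129) or without any 1 of the 4 libraries (adjusted p = 0.0503 to 0.391). STC2 and TRIB3 were named after their values were seen.

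**Figure D3:**
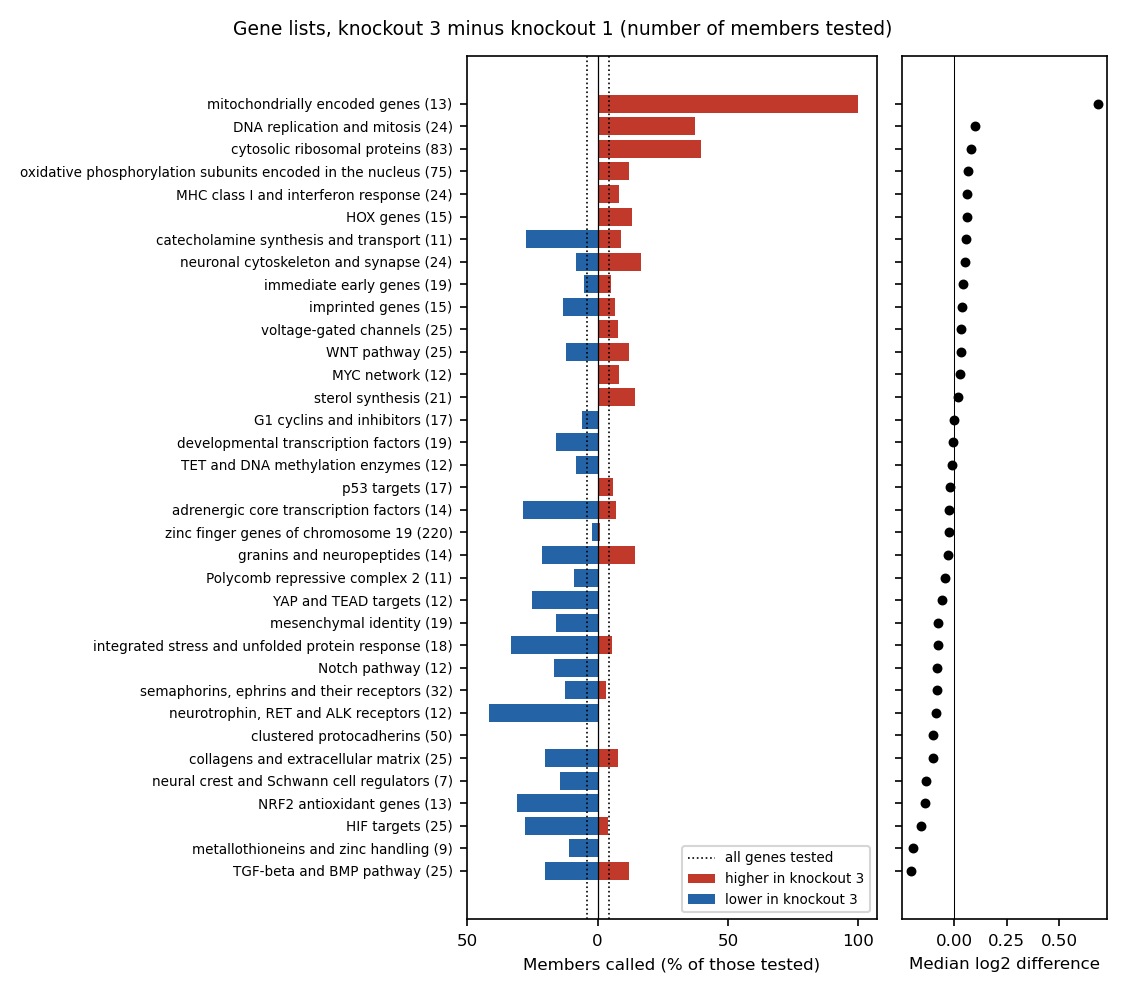
For each gene list with at least 5 tested members (cell type marker lists not shown), bars show the share of members called higher (red) or lower (blue) in knockout 3, with dotted lines at the shares over all genes tested (4.41% and 3.89%), and points show the median log2 difference. The mitochondrially encoded genes stand at 0.68, and the next medians plotted are at 0.10 and below.

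Among called genes whose groups did not overlap and whose higher group had a mean of at least 2 CPM, the largest differences were these. SAMD11, a sterile alpha motif protein (chromosome 1, 923928 to 944581), was at 15.1 and 17.7 CPM in knockout 1, 6.90 and 6.75 CPM in knockout 3, 10.2 and 10.3 CPM in WT and 30.1 and 29.5 CPM in knockout 2. The knockouts thus lie on either side of WT, with a log2 difference of -1.27 (SE 0.11, adjusted p = 1.8e-21). Exons of SAMD11 overlap those of NOC2L on the other strand, and counting without strand cannot tell their reads apart in shared exons. CDC42EP1, an effector of the GTPase CDC42, was at 1.67 and 2.47 CPM in knockout 1 and 5.35 and 4.48 CPM in knockout 3 (log2 difference 1.24, SE 0.20, adjusted p = 2.05e-07), with WT at 5.18 and 6.03 CPM.

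Among other higher genes, GAD1, which makes the transmitter GABA, was at 12.4 and 12.2 CPM in knockout 1 and 21.1 and 21.4 CPM in knockout 3 (log2 difference 0.79, SE 0.09, adjusted p = 6.99e-13). POPDC2, a cyclic AMP binding membrane protein, was at 3.59 and 4.18 against 8.34 and 6.53 CPM (log2 difference 0.94), and it shares exons with COX17 on the same strand. FEZ1, an axonal transport adaptor, was at 3.52 and 2.70 against 5.96 and 5.15 CPM (log2 difference 0.85). RGS13, a regulator of G-protein signalling chosen after its values were seen, was at 30.4 and 33.1 against 49.2 and 52.7 CPM (log2 difference 0.68, SE 0.06). The rest of the 12 highest were MT-ND4, MT-ND5, MT-ND6, ZNF630, GSDMB, ITM2A, NBPF20 and DOC2B, with log2 differences of 0.73 to 0.88. Of these, the call was lost without knockout 1 replicate 2 for ZNF630 (adjusted p = 0.0526), DOC2B (0.0767), NBPF20 (0.0607), GSDMB (0.0887) and ITM2A (0.128). It was lost without knockout 3 replicate 2 for NBPF20 (0.0847), GSDMB (0.293) and ITM2A (0.0904), without knockout 1 replicate 1 for GSDMB (0.232) and ITM2A (0.12), and without knockout 3 replicate 1 for ITM2A (0.115). NBPF20 belongs to a family of near-identical copies, so its count is uncertain.

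RGS8 and RGS16, which regulate G-protein signalling as RGS13 does, were lower. RGS8 was at 18.0 and 19.5 CPM in knockout 1 and 10.6 and 10.2 CPM in knockout 3 (log2 difference -0.85, SE 0.10, adjusted p = 2.12e-13). RGS16, which lies near it on chromosome 1, was at 413 and 411 against 319 and 300 CPM (log2 difference -0.41, SE 0.03, adjusted p = 3.25e-24), with WT at 412 and 417 CPM. DOK4, a docking protein for receptor tyrosine kinases, was at 339 and 343 against 245 and 255 CPM (log2 difference -0.45, SE 0.03, adjusted p = 4.15e-26), with WT at 219 and 224 CPM, and it overlaps POLR2C on the opposite strand.

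The peptide receptors GALR1, for galanin, and VIPR2, for vasoactive intestinal peptide, were among the lowest, at 2.57 and 3.18 against 1.62 and 1.29 CPM and at 3.37 and 3.69 against 2.22 and 1.44 CPM. GALR1 lost its call without knockout 1 replicate 2 (adjusted p = 0.108) and without knockout 3 replicate 2 (adjusted p = 0.0644), and VIPR2 without knockout 3 replicate 2 (adjusted p = 0.0985). IL33, an alarmin cytokine, was at 9.51 and 7.13 against 4.51 and 4.52 CPM (log2 difference -0.87), with 27.8 and 26.2 CPM in knockout 2. IL2RB, the beta chain of the interleukin-2 receptor, was at 3.56 and 3.53 against 1.71 and 1.75 CPM, and ANOS1, a matrix protein of neuronal migration, at 4.37 and 3.67 against 1.85 and 2.03 CPM, with log2 differences of -1.03 and -1.05. CSPG4, a membrane proteoglycan, and TMEM132E, a membrane protein, had log2 differences of -0.94 and -0.86. CRB2, a polarity protein, had -1.04 and lost its call without knockout 3 replicate 1 (adjusted p = 0.143). Exons of CRB2 overlap DENND1A on the opposite strand.

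**Figure D4:**
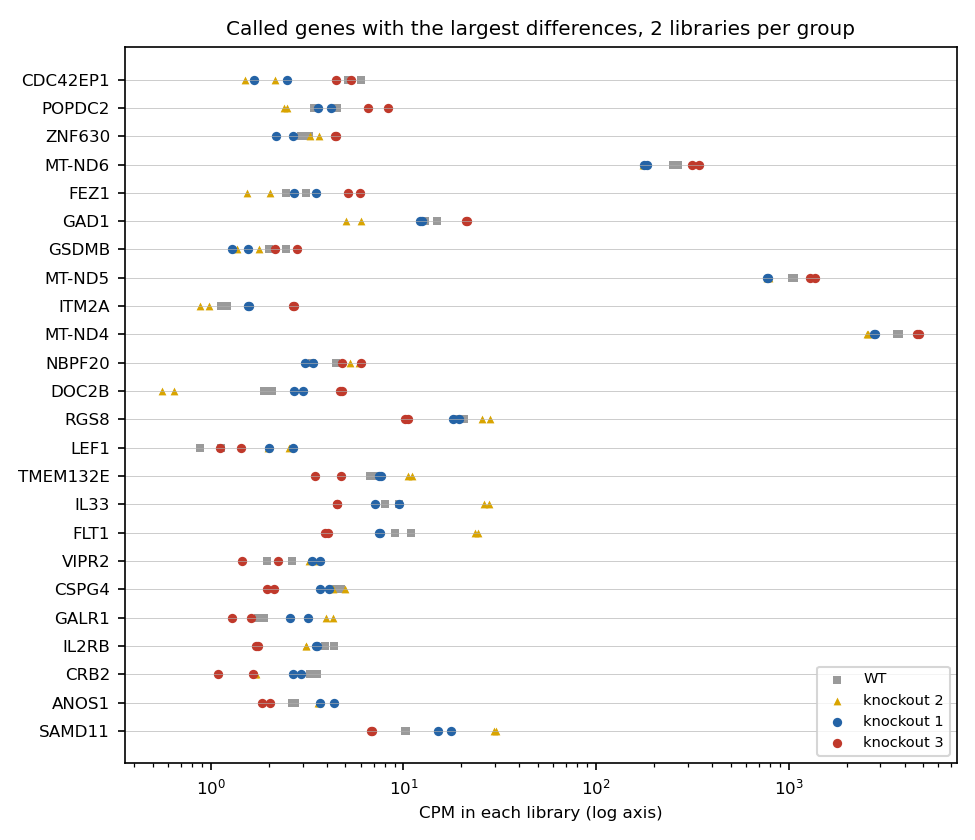
The CPM of each library is plotted on a log axis for the 12 called genes with the largest and the 12 with the smallest log2 difference among those whose groups did not overlap and whose higher group reached a mean of 2 CPM, with 2 points for each of the 4 groups. The genes were chosen for separate blue and red points, and for SAMD11 the WT points, at 10.2 and 10.3 CPM, lie between them.

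Differences were uneven along the genome. Chromosome 11 held 92 genes higher and 23 lower of 799 tested (11.5% and 2.88%), with a median of 0.05. Outside chromosome 11 and the mitochondrial genome 3.89% were higher and 3.96% lower. With the tested genes of chromosome 11 split by order into 4 stretches, the last (92352096 to 134412242, toward the end of the long arm) held 53 higher and 4 lower of 199, with a median of 0.12. The first (167784 to 36593156, on the short arm) held 22 higher and 3 lower of 200, with a median of 0.07. Both middle stretches had nearly equal numbers, with 8 higher and 8 lower, and 9 higher and 8 lower. Relative to WT, the median over the 170 genes of at least 1 CPM in the last stretch was -0.19 for knockout 1, -0.08 for knockout 2 and -0.09 for knockout 3, so all 3 knockouts lay below WT there and knockout 1 lay lowest. The 7 highest of 528 windows of 50 neighbouring genes were on chromosome 11, although no window reached the difference of 0.25 set for naming one, and the highest had a median of 0.15. This region was chosen after its values were seen, and copy number was not measured. The 53 higher genes were 31, 29, 33 and 35 without each library in turn (knockout 1 replicates 1 and 2, knockout 3 replicates 1 and 2), with 2 to 4 lower. The 22 of the first stretch were 11, 14, 14 and 17 in the same order.

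Within the last stretch, chosen after their values were seen, TAF1D, a subunit of the RNA polymerase I initiation factor, was at 110.5 and 106 CPM in knockout 1 and 133 and 140.5 CPM in knockout 3 (log2 difference 0.34, SE 0.04). Exons of TAF1D overlap C11orf54, CEP295 and MED17 on the opposite strand, and C11orf54 was also called higher. KMT2A, a histone H3 lysine methyltransferase, was at 99.1 and 101 against 121 and 120.2 CPM (log2 difference 0.27), with WT at 142 and 132 CPM. H2AX, the histone variant phosphorylated at DNA breaks, was at 73.5 and 76.0 against 95.6 and 94.1 CPM (log2 difference 0.34), and NCAM1, a neural cell adhesion molecule, at 323 and 322 against 362 and 373 CPM (log2 difference 0.19). FEZ1 and RPS25, described above, also lie there. MMP1, an interstitial collagenase, went against its neighbours, at 28.4 and 26.8 CPM in knockout 1, 17.9 and 18.2 CPM in knockout 3 and 112 and 114 CPM in WT (log2 difference -0.62, SE 0.08). Chromosome 17 leaned the other way, with 17 higher and 59 lower of 843 tested (2.02% and 7.0%) and a median of -0.03. Its 59 lower genes were 38, 25, 34 and 37 without knockout 1 replicates 1 and 2 and knockout 3 replicates 1 and 2, and its 17 higher genes were 5, 7, 11 and 16.

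**Figure D5:**
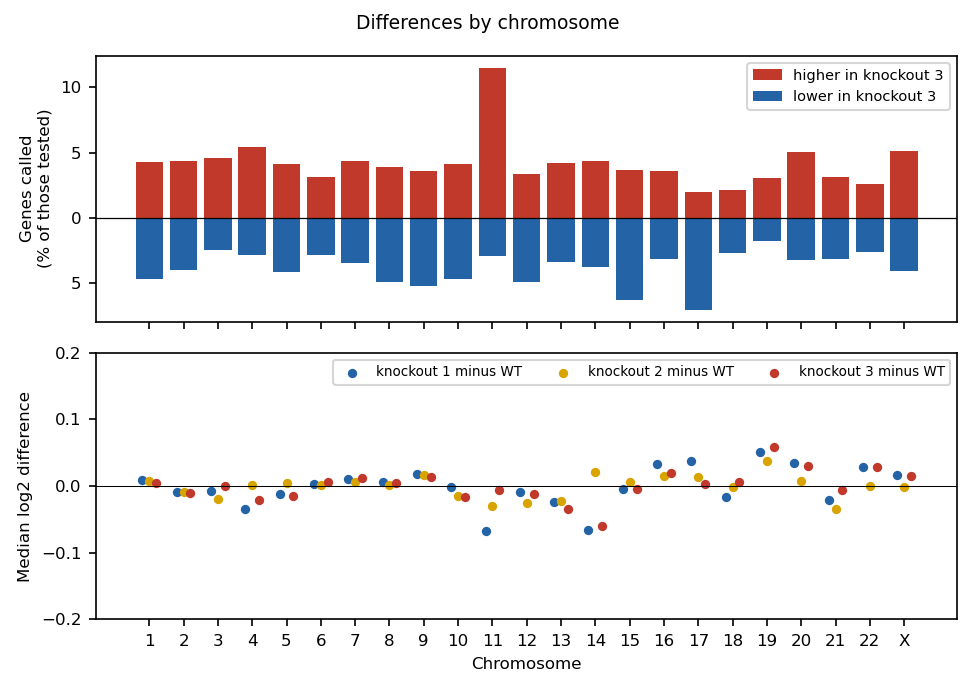
Upper panel: the share of tested genes called higher (red) or lower (blue) in knockout 3 on chromosomes 1 to 22 and X; lower panel: the median log2 difference of each knockout from WT over genes of at least 1 CPM. Chromosome 11 stands out with 11.5% higher, and its median from WT is -0.07 for knockout 1, -0.03 for knockout 2 and -0.01 for knockout 3.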

How the data were processed

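RNA isolated with TRIzol was made into stranded oligo-dT libraries, per the labels' protocols. The authors deposited whole-number counts per gene, made with featureCounts 2.0.5 on GRCh38 with exons of protein-coding genes of GENCODE 33, per the file headers. The submitters' processing notes list Trimmomatic 0.36, STAR 2.6.1d and Subread 1.5.3, the last unlike the header. Paired reads were counted singly and without strand. The 8 libraries of the batch were fitted with edgeR 4.0.16 (R 4.3.3): filterByExpr, TMM, robust quasi-likelihood F-test, contrast of knockout 3 minus knockout 1, Benjamini-Hochberg adjusted p under 0.05 over 14061 genes. SE is the log2 difference divided by the root of F. DESeq2 1.42.0 was an alternative. The fit was tested on simulated data. Members and gene lists were chosen with earlier results of these data known. The text names the 12 called genes with the largest difference in each direction (non-overlapping groups, higher mean at least 2 CPM), the 5 with the smallest p, up to 4 called members per list (any member of a list of 12 or fewer) and a few preset genes. Promoters are from RefSeq. A few genes that the rule names are not reported here.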

Additional observations from a re-analysis of the deposited data

How the results depend on the processing

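The 1167 called genes were counted again under other settings, and in none of these did a called gene change sign. RLE size factors, halved counts, no gene filter, the 4 libraries alone, the legacy quasi-likelihood method, no mitochondrial genes, and offsets for GC content and exon length (the last chosen after seeing the data) gave 959 to 1520 genes, within 1.5 times. DESeq2 gave 945 genes of 11323 with an adjusted p, and 905 of the 1167 were among them, but only 5 with at least a 2-fold difference, against 23. The test against a 1.2-fold change left 57 genes, 26 higher and 31 lower, 5 of them past 2-fold. Leaving out each library in turn gave 564 to 797 called genes, 306 to 428 higher and 258 to 369 lower, with 12 to 20 past 2-fold. There the lone library is assumed to vary like the other groups.

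For TET2, the difference of -0.13 (adjusted p = 0.0885) passed the threshold with GC content and length offsets (-0.14, adjusted p = 0.0255). Leaving out each library in turn gave -0.057 to -0.20, and the call was made without knockout 3 replicate 2 (adjusted p = 0.0221). The replicate numbers of the labels did not pair the libraries: deviations of same-numbered libraries correlated at -0.135 over 10418 genes. With the replicate number as a block, 984 genes were called, 526 higher and 458 lower. With the numbers of knockout 3 exchanged in that block, a setting chosen after seeing the data, 1494 genes were called. TET2 was among them at -0.13 (adjusted p = 0.048). The estimated spread (dispersion) was 0.00034 there and 0.00051 with the labelled numbers. Its added calls, that of TET2 included, are therefore no independent support. Of 148 called genes that the rule or the text named, 6 lost their call under the block with the labelled numbers. Depth limits the low genes: of 2020 tested with a mean under 1 CPM in the 4 libraries, 15 were called, none with a log2 difference smaller than 1.22.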

Other observations

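Other gene groups differed in few members, beside 4.41% higher and 3.89% lower over all genes tested. Antioxidant targets of NRF2 were lower where called (4 of 13 tested, 0 higher, median -0.14). Sterol synthesis genes were higher where called (3 of 21, 0 lower), led by FDPS, farnesyl diphosphate synthase, at 293 and 296 CPM in knockout 1 and 338 and 329 CPM in knockout 3. TEAD2, of the transcription factors that YAP binds, was at 28.8 and 29.2 against 23.5 and 22.2 CPM, 1 of 3 lower among 12 YAP and TEAD genes, a count that was 1 without knockout 1 replicate 1 and 1 without knockout 3 replicate 1. OAS1, an interferon-induced synthetase, was at 28.6 and 29.7 against 38.5 and 35.8 CPM, 1 of 2 higher among 24 genes of MHC class I and the interferon response. SLC39A14, a zinc importer, was the 1 member lower among 9 metallothionein and zinc genes, at 252 and 244 against 214 and 218 CPM. Of 15 imprinted genes, MEST was higher (3.00 and 2.12 against 4.08 and 3.802 CPM, with 30.0 and 31.1 CPM in WT) and IGF2 and DLK1 were lower. Neither IGF2 nor DLK1 was called in DESeq2 (adjusted p = 0.162 and 0.0756). Both also lost their call without knockout 1 replicate 2 (log2 difference -0.15 and -0.03). Exons of IGF2 overlap INS-IGF2 on the same strand. The MEST call was lost without knockout 1 replicate 2 (adjusted p = 0.395), knockout 3 replicate 1 (adjusted p = 0.178) and knockout 3 replicate 2 (adjusted p = 0.0522).

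The Notch pathway had 2 lower of 12, the developmental transcription factors 3 lower of 19, and the neural crest and Schwann cell regulators 1 lower of 7, with 0 higher in each. HOX genes had 2 higher of 15, voltage-gated channels 2 higher of 25, p53 targets 1 higher of 17 and the MYC network 1 higher of 12, with 0 lower in each. Immediate early genes had 1 higher and 1 lower of 19, and the zinc finger genes of chromosome 19 had 2 higher and 5 lower of 220. The shares over all genes tested were 4.41% higher and 3.89% lower. Counts of 1 or 2 in short lists do not set a group apart from these shares. No member was called among 50 clustered protocadherins, 3 cancer-testis and germline genes and 3 Schwann cell markers with edgeR or DESeq2; at an unadjusted p under 0.05 these groups held 3, 0 and 1 genes. Of the 4 NRF2 targets, 1 to 3 were called without each library in turn, and of the 3 sterol genes 1 to 3. In the groups of this paragraph, no count of members called in 1 direction exceeded 3 with any 1 of the 4 libraries left out.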
